A study of Homo sapiens with 38 samples.

Results

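The RNA levels of HCT116 cells in which VPS4A and VPS4B were silenced together with the second combined pair of siRNA duplexes, siVPS4A+B#2, were compared with those of cells that received the non-targeting duplex siCTRL#1. The members were all libraries carrying those 2 labels, 4 of siVPS4A+B#2 (written siVPS4AB#2 in the labels) and 5 of siCTRL#1, that is 9 of the 38 libraries of the series, and all 12627 listed genes were followed in both directions. HCT116 is a human epithelial colorectal carcinoma line. The siVPS4A+B#2 cells received siVPS4A#1 and siVPS4B#2 at 30 nM each, and the siCTRL#1 cells received 60 nM of the non-targeting duplex, so the total dose was 60 nM in both. RNA was collected 72 h after transfection, and libraries of the same replicate number came from the same labelled batch. 3 other conditions were used to place the pair, namely siVPS4A#1 alone (5 libraries) and siVPS4B#2 alone (4 libraries), each at 30 nM with 30 nM of siCTRL#1, and the other combined pair, siVPS4A+B#1 (4 libraries), made of siVPS4A#2 and siVPS4B#1 at 30 nM each. Non-transfected cells (NT) and a second non-targeting duplex, siCTRL#2, with 4 libraries each, served as alternative controls. The cells were 1 line silenced transiently, and mRNA says nothing of the remaining protein.

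VPS4A and VPS4B are paralogous AAA ATPases that take apart and recycle the filaments of the ESCRT-III complex. ESCRT proteins sort ubiquitinated receptors into multivesicular endosomes on the way to the lysosome, cut the membrane bridge that joins daughter cells at the end of division, and reseal the nuclear envelope and damaged membranes. Receptors that are not sorted can go on signalling from endosomes, and autophagosomes need the same machinery to close.

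The siVPS4A+B#2 libraries held 5090666 to 8414939 reads over the listed genes and the siCTRL#1 libraries 5801458 to 10029811. Levels are given in reads per 1000000 reads, scaled by TMM factors (RPM). Differences are log2 fold changes of RPM + 1 with their standard errors (SE), which draws genes with few reads toward 0. A gene was called higher or lower where limma gave a fold change of at least 1.5 and a Benjamini-Hochberg adjusted p under 0.05 over all 12627 genes, in a model of the 9 conditions with the replicate number as a block. Of 20 colorectal epithelium markers, 11 were listed, and their summed level was 6266 to 7043 RPM in siVPS4A+B#2 and 4743 to 7386 RPM in siCTRL#1. 10 of 12 leukocyte markers and 7 of 12 fibroblast and endothelial markers were not among the listed genes. Since RNA was measured in bulk, fewer cells of a kind and less RNA per cell cannot be told apart. 1 library outside the 9 stood apart from its label: that labelled siVPS4A#1 replicate 2 held 669257 reads and 1.62 RPM of VPS4B, where the other 4 siVPS4A#1 libraries held 21.6 to 32.0 RPM. Counts, list values and interaction terms that involve siVPS4A#1 are given with and without it. It also enters the SE and p of every comparison, since the model holds all 38 libraries. The siCTRL#1 libraries were not evenly apart: over genes with at least 20 reads the chi-square per degree of freedom was 2.50 between replicates 1 and 4 and 6.52 between replicates 2 and 5, beside 15.3 to 25.8 for the other 8 siCTRL#1 pairs and 6.52 to 43.7 for all other pairs of libraries of 1 condition. A value of 1 is expected of sampling alone. A value above 1 does not show that 2 libraries came from separate cultures, and this was not tested. The 5 were kept apart, so the SE and p treat them as separate replicates. Counts with 3 of them as the controls are given beside those with 5.

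Both targets were silenced in every siVPS4A+B#2 library. VPS4A (NM_013245 in the files) lies in GRCh37 at chromosome 16, 69345253 to 69360842, plus strand, and VPS4B (NM_004869) at chromosome 18, 61056423 to 61089716, minus strand. VPS4A was at 3.07, 7.75, 4.32 and 5.10 RPM in siVPS4A+B#2 replicates 1 to 4 and 197, 172, 179, 191 and 206 RPM in siCTRL#1 replicates 1 to 5, which left 2.68% of the siCTRL#1 mean and a log2 fold change of -5.08 ± 0.29 (SE, limma, adjusted p = 4.6e-15). VPS4B was at 1.53, 1.51, 1.28 and 0.85 RPM in siVPS4A+B#2 replicates 1 to 4 and 23.8, 20.1, 16.4, 18.1 and 24.5 RPM in siCTRL#1 replicates 1 to 5, which left 6.29% and a log2 fold change of -3.11 ± 0.36 (SE, limma, adjusted p = 2.5e-08). Every siVPS4A+B#2 library lay below every siCTRL#1 library for either gene, and the VPS4B values rested on 31 reads in all 4 siVPS4A+B#2 libraries together.

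Between siVPS4A+B#2 and siCTRL#1, 3537 of 12627 genes were called (28%), with 1673 higher (13.2%) and 1864 lower (14.8%). The called higher genes had a median log2 fold change of 0.85 and the called lower genes one of -0.90, beside a median absolute value of 0.35 over all genes. At least 2-fold, 556 genes were higher and 732 lower, and at least 4-fold 56 and 41. All 4 siVPS4A+B#2 libraries lay above all 5 siCTRL#1 libraries for 1994 genes (15.8%) and below them for 1983 (15.7%), and this held for 1390 of the called higher and 1535 of the called lower genes. Among 1918 genes with a mean of at least 100 RPM, 338 were higher and 186 lower, whereas among 2959 genes between 1 and 10 RPM 365 were higher and 581 lower. Without TMM factors 1165 genes were higher and 2426 lower, the share of calls that were higher being 32.4% in place of 47.3%, and the median of all genes moved to -0.12.

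The highest rise was that of HMOX1, the inducible heme oxygenase, followed by KRTAP3-1, a keratin-associated protein gene, CPA4, a secreted carboxypeptidase, and BIRC3, an E3 ligase of the TNF receptor complex. HMOX1 was at 2660.2, 4357, 5447 and 3183 RPM in siVPS4A+B#2 replicates 1 to 4 and 42.8, 41.4, 56.3, 39.9 and 48.4 RPM in siCTRL#1 replicates 1 to 5, a log2 fold change of 6.33 ± 0.26 (SE, limma, adjusted p = 3.1e-19). KRTAP3-1 was at 65.98, 31.6, 20.8 and 49.8 RPM against 0.167, 0.239, 0.845, 0.287 and 0.188 RPM in the same order, 4.98 ± 0.33 (SE, limma, adjusted p = 1.2e-13), and CPA4 at 214, 240.5, 216 and 202 RPM against 5.19, 6.82, 15.7, 4.31 and 7.53 RPM, 4.72 ± 0.38 (SE, limma, adjusted p = 1.4e-11). For all 3 the lowest siVPS4A+B#2 library stood far above the highest siCTRL#1 library, although KRTAP3-1 rested on 12 reads over the 5 controls. BIRC3 was at 223, 310.00, 287 and 242 RPM against 8.03, 10.5, 9.63, 7.89 and 8.10 RPM, 4.62 ± 0.53 (SE, limma, adjusted p = 1.8e-08). CYP4F3, which inactivates leukotriene B4, was at 62.2, 72.8, 114 and 60.2 RPM against 4.52, 4.66, 7.60, 6.32 and 4.33 RPM (3.53), and AKAP12, a scaffold of protein kinase A, at 1153, 1257, 1309 and 1078 RPM against 115, 122, 98.3, 117 and 144 RPM (3.37). The siVPS4A+B#2 and siCTRL#1 libraries did not overlap for any of these. Also among the 15 highest were TNFRSF9 (4.20), CXCL8 (4.17), VGF (3.40), SQSTM1 (3.32), HMGCS1 (3.18), GCLM (3.06), FGFBP1 (3.03) and EID3 (2.94), of which several return with their groups below.

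The lowest genes after the targets included MAN2B2, which encodes an alpha-mannosidase, PCK2, the mitochondrial phosphoenolpyruvate carboxykinase, NGFR, a neurotrophin receptor, and KIF20A, a kinesin of cytokinesis. MAN2B2 was at 9.72, 10.98, 12.97 and 10.9 RPM against 91.5, 109, 94.96, 96.3 and 98.1 RPM, a log2 fold change of -3.13 ± 0.28 (SE, limma, adjusted p = 1.7e-10). NGFR was at 15.5, 11.6, 8.97 and 14.2 RPM against 98.9, 96.4, 58.3, 85.1 and 80.7 RPM, -2.60 ± 0.25 (SE, limma, adjusted p = 6.8e-10), and KIF20A at 14.3, 8.61, 4.48 and 6.80 RPM against 46.2, 50.8, 57.1, 45.2 and 44.2 RPM, -2.54 ± 0.22 (SE, limma, adjusted p = 9.6e-11). In each the siVPS4A+B#2 libraries were all below the siCTRL#1 libraries. ABAT, the transaminase that degrades GABA, was at 4.77, 6.89, 4.64 and 4.86 RPM against 30.4, 37.9, 28.2, 35.7 and 35.9 RPM (-2.54), and TXNRD2, the mitochondrial thioredoxin reductase, at 2.90, 4.09, 3.68 and 5.10 RPM against 24.1, 21.2, 34.8, 26.3 and 20.9 RPM (-2.51). These also did not overlap. The other genes of the 15 lowest were ARHGEF39 (-2.65), TSPAN7 (-2.56), ST6GALNAC3 (-2.55), MXD3 (-2.49), VASN (-2.39), KRT23 (-2.37), INTS1 (-2.34) and NRGN (-2.33), with PCK2 and the histone gene H4C4 described with their groups.

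**Figure D1:**
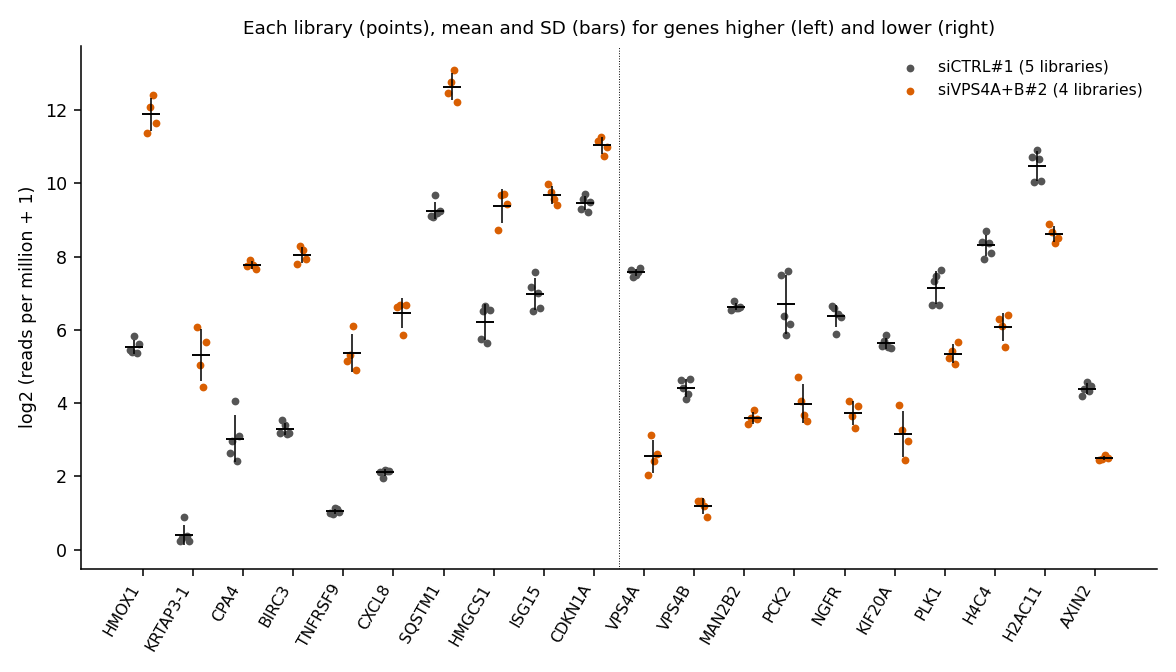
Log2 of RPM plus 1 (vertical axis) of 20 genes in each siVPS4A+B#2 and siCTRL#1 library, points for libraries and bars for the mean ± SD of these log2 values. VPS4A, VPS4B and the genes of division sit lower in all 4 siVPS4A+B#2 libraries, HMOX1, BIRC3, CXCL8 and SQSTM1 higher in all 4.

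**Figure D2:**
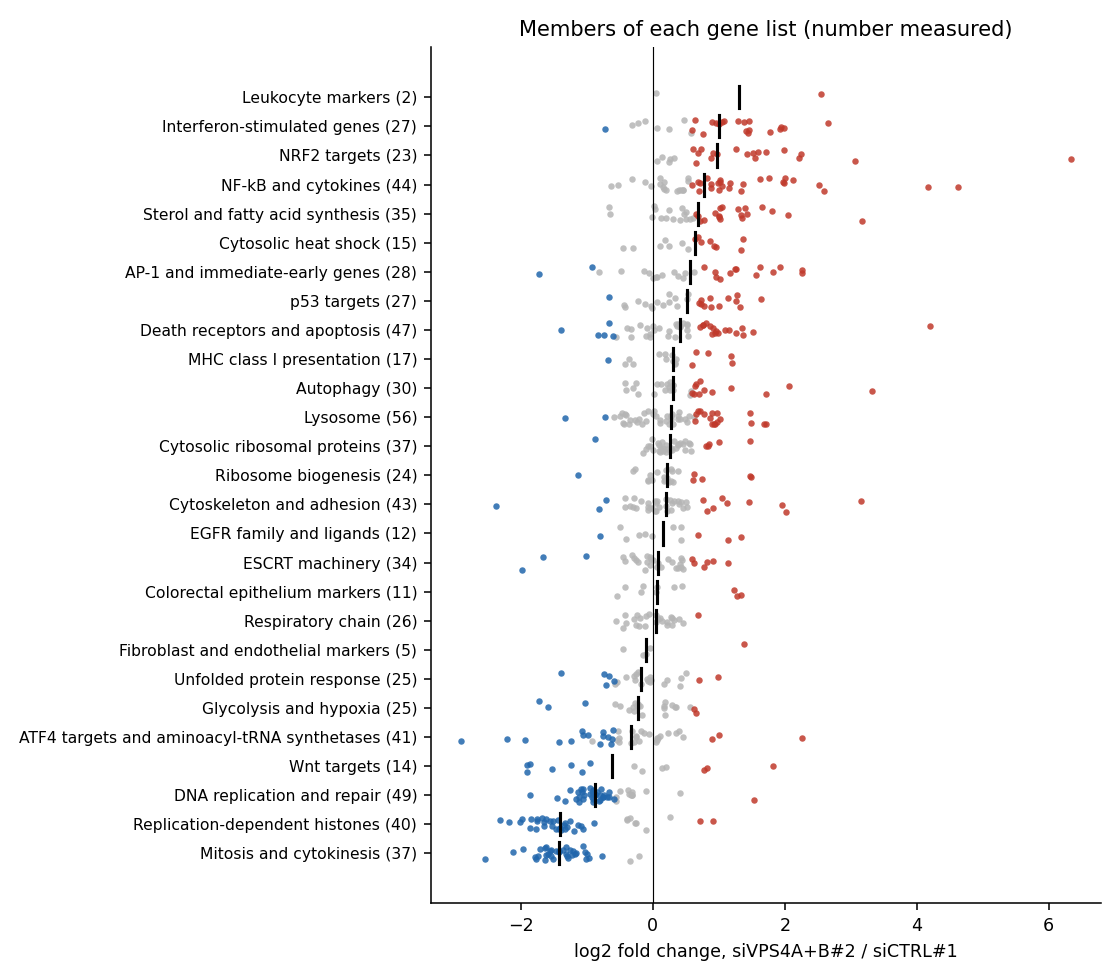
Log2 fold change of siVPS4A+B#2 against siCTRL#1 for every measured member of 27 gene lists, 1 point per gene, with called genes coloured and the median of each list marked. The medians run from -1.42 for mitosis and -1.40 for replication-dependent histones to 0.97 for NRF2 targets, 1.00 for interferon-stimulated genes and 1.30 for leukocyte markers, of which 2 genes were measured.

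Among the ESCRT proteins themselves, most transcripts stayed within 1.5-fold. Of 34 measured members without the targets, 6 were called higher and 3 lower, with a median of 0.07. For this list and those below, the background over all genes was 13.2% called higher and 14.8% called lower. The ESCRT-III subunit CHMP1B was at 243, 210.3, 204 and 189 RPM against 107, 89.2, 76.5, 107 and 96.02 RPM (1.14 ± 0.14 (SE, limma, adjusted p = 1e-07)), CHMP2B had a log2 fold change of 0.78, and PTPN23, which binds ESCRT-I and ESCRT-III, one of 0.83. CEP55, which brings ESCRT proteins to the midbody, was at 12.1, 13.1, 15.8 and 16.3 RPM against 52.7, 47, 65.7, 58.8 and 61.1 RPM (-1.99 ± 0.22 (SE, limma, adjusted p = 7.5e-09)), VTA1, the cofactor that activates VPS4, at 17.2, 17.9, 21.8 and 23.6 RPM against 59.7, 67.3, 62.9, 58.99 and 61.3 RPM (-1.66 ± 0.18 (SE, limma, adjusted p = 8.3e-09)), and the ESCRT-I subunit VPS37C had -1.01. CEP55 and VTA1 did not overlap with the controls. Without the library labelled siVPS4A#1 replicate 2, CEP55, VTA1 and VPS37C differed from siVPS4A#1 alone by 0.58, -0.08 and 0.05, all uncalled. From siVPS4A+B#1 they differed by -1.21, -1.79 and -0.95, all called lower. In the same fit CHMP1B and PTPN23 differed from siVPS4A#1 alone by 0.32 and 0.40, both uncalled, and CHMP2B by 0.66, called higher. CHMP4C (0.91) was not called with NT as the control (0.21), and without siCTRL#1 replicate 2 the members called lower numbered 5 in place of 3.

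Genes of the NF-kB pathway rose. NF-kB dimers are held in the cytoplasm by inhibitors, many of which are themselves targets of NF-kB, and they drive genes of chemokines, cytokines and survival factors. Of 44 measured members, 26 were called higher and 0 lower by limma, with a median of 0.77, and 26 lay wholly above the controls (background 13.2% and 15.8%). 2 members were lower at an unadjusted p under 0.05, as were 2 by DESeq2 and 2 by edgeR, and without the library labelled siVPS4A#1 replicate 2 25 members were called higher and 1 lower. Of 5 subunits 3 rose: RELB, the partner of p52, was at 122, 128, 118 and 98.4 RPM against 16.6, 16.3, 22.8, 19.2 and 14.6 RPM (2.53 ± 0.32 (SE, limma, adjusted p = 9.7e-08)) and NFKB2, the precursor of p52, at 405, 600.4, 456 and 569 RPM against 147, 203, 115, 149.7 and 189.98 RPM (1.62 ± 0.30 (SE, limma, adjusted p = 5.4e-05)). NFKB1 rose by 0.88 and was not called against NT (0.22), while RELA had 0.46 and REL 0.36, both uncalled. RELB and NFKB2 were higher in every siVPS4A+B#2 library than in any control. 5 of 8 feedback inhibitors were called higher, NFKBIA, the inhibitor IkBa, at 364, 323, 258 and 377 RPM against 102, 66.98, 67.1, 99.5 and 68.6 RPM (1.97 ± 0.26 (SE, limma, adjusted p = 3.1e-07)). Among adaptors and kinases, besides BIRC3, MAP3K14 (1.98), IKBKG (1.34) and BIRC2 (1.05) rose, MAP3K14 being the kinase NIK that starts processing of p100.

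The 4 measured CXC chemokines were all called higher. CXCL8, the neutrophil chemoattractant interleukin 8, was at 98.2, 101, 56.8 and 101 RPM in siVPS4A+B#2 replicates 1 to 4 and 3.35, 2.87, 3.55, 3.44 and 3.39 RPM in siCTRL#1 replicates 1 to 5 (4.17 ± 0.67 (SE, limma, adjusted p = 6.7e-06)). CXCL1 was at 18.8, 17.2, 12.8 and 15.5 RPM against 1.84, 2.27, 4.73, 3.01 and 2.07 RPM (2.13 ± 0.30 (SE, limma, adjusted p = 8.1e-07)), and CXCL2 and CXCL3 rose by 1.76 and 1.02, while CCL5 had 0.11 and was not called. The siVPS4A+B#2 libraries lay wholly above the controls for all 4 CXC chemokines, with replicate 3 the lowest of them for CXCL8. 7 of 10 cytokines were called higher, among them IL32 at 7.50, 7.10, 10.9 and 5.95 RPM against 0.502, 0.359, 0.507, 0 and 0.188 RPM (2.59 ± 0.51 (SE, limma, adjusted p = 0.00011)), IL18 at 517, 465, 756 and 508 RPM against 128, 160.3, 129.6, 120.4 and 136 RPM (2.00 ± 0.22 (SE, limma, adjusted p = 8.1e-09)) and the myeloid growth factor gene CSF1 (1.00). IL32 and IL18 did not overlap with the controls. SOD2 (-0.02) and ICAM1 (-0.53), also listed as targets, were not called.

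Promoters of the genes that stood for a group were taken from the RefSeq table of GRCh38.p14 (250 bases before the start site) and located by exact match in GRCh37. They are shown so that the letters of a motif can be read beside the values. The letters GGANNNTCC, a kappaB-like pattern searched on both strands, are in capitals for CXCL8 (chr4:74606036-74606285, plus strand, first motif base 91 before the start) and NFKBIA (chr14:35873956-35874205, minus strand, 242 and 81 before the start). The pattern occurs in 8.03% of 10206 such promoters, in 13 of 36 of those of the NF-kB list and in 8.67% of the called higher genes. A match is a description of letters and not of binding.
CXCL8: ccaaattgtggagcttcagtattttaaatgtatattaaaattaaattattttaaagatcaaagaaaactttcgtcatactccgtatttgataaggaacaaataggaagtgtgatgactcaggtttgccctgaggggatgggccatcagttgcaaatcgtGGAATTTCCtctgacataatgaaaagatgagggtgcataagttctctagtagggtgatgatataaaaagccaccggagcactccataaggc
NFKBIA: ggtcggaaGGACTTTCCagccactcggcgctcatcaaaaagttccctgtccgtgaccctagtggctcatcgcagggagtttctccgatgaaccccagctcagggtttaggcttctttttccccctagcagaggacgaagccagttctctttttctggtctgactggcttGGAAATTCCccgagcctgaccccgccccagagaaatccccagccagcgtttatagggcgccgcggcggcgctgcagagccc

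Receptors and effectors of cell death moved in both directions, with more higher than lower. Of 47 members 17 were called higher and 5 lower (background 13.2% and 14.8%), with a median of 0.41. TNFRSF9, the costimulatory receptor 4-1BB, was at 34.4, 38.5, 67.2 and 29.02 RPM against 1.00, 0.957, 1.18, 1.15 and 1.04 RPM (4.20 ± 0.58 (SE, limma, adjusted p = 5.9e-07)), on 40 reads over the 5 controls. 6 of 11 pro-apoptotic BCL2 family genes rose, among them BAK1 at 119.9, 103, 85.6 and 85.6 RPM against 41.5, 30.5, 47.99, 36.02 and 32.2 RPM (1.37 ± 0.15 (SE, limma, adjusted p = 1.1e-08)), and BIK (1.51), PMAIP1 (1.36) and BBC3 (1.25), and the other 5 had positive log2 fold changes that were not called. The siVPS4A+B#2 libraries of TNFRSF9 and BAK1 were all above the controls. Without the library labelled siVPS4A#1 replicate 2, the pair differed from siVPS4A#1 alone by 0.02 for BAK1, 0.18 for BIK and 0.07 for BBC3. None of these was called, whereas PMAIP1 was, with 1.13. In the death receptor complex CASP8 rose by 0.95, its inhibitor CFLAR by 0.86 and the necroptosis effector MLKL by 0.95, whereas the receptors FAS (0.52) and TNFRSF10B (0.25) were not called. Lower were BIRC5, the mitotic inhibitor survivin, at 118, 93, 73.5 and 95.4 RPM against 219, 209, 261, 223 and 224 RPM (-1.39 ± 0.19 (SE, limma, adjusted p = 4.1e-07)), and CASP2 (-0.84). The survival gene MCL1 rose by 1.16, and neither MCL1 (0.50) nor CFLAR (0.57) was called with siCTRL#2 as the control, nor MLKL against NT (0.49).

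Interferon-stimulated genes, which encode sensors and effectors against viral RNA, had a median of 1.00, the highest of the lists with more than 2 measured members. Of 27 measured members 19 were called higher and 1 lower. ISG15, a ubiquitin-like modifier, was at 1016, 865, 765 and 674 RPM in siVPS4A+B#2 replicates 1 to 4 and 143, 90.2, 189, 129 and 95.6 RPM in siCTRL#1 replicates 1 to 5 (2.65 ± 0.19 (SE, limma, adjusted p = 1.5e-12)). IFI6 was at 512, 343, 275 and 409 RPM against 97.9, 94.6, 85.3, 105 and 108 RPM (1.94 ± 0.18 (SE, limma, adjusted p = 1.7e-10)) and IRF9, the DNA-binding part of the interferon-activated complex ISGF3, at 30.3, 23.5, 19.9 and 44.3 RPM against 4.01, 12.2, 9.29, 7.32 and 12.1 RPM (1.77 ± 0.26 (SE, limma, adjusted p = 1.5e-06)). All 3 stood above the controls in every library. IFIT5 (1.98) and OAS1 (1.92) also rose, OAS1 on 17 reads over the controls, as did the RNA sensor RIGI (1.46). MX1 (-0.31), IFIT1 (0.58), IFIT3 (0.47) and STAT2 (-0.12) were not called, STAT2 having 2.54 against siCTRL#2, and USP18, which removes ISG15, fell by 0.72 but was not called with NT (-0.03) or siCTRL#2 (-0.13) as the control. Of 17 genes of MHC class I presentation, 5 were called higher and 1 lower, with B2M, the light chain, at 787, 863, 1001 and 783 RPM against 405, 404, 291, 367 and 374 RPM (1.20 ± 0.18 (SE, limma, adjusted p = 1.6e-06)) and the peptide transporter TAP1 at 124, 118, 123 and 118 RPM against 52.2, 53.3, 59.6, 47.7 and 51.9 RPM (1.18 ± 0.12 (SE, limma, adjusted p = 9.2e-10)). The heavy chains HLA-B (0.29) and HLA-C (0.09) were not called, and their reads can be shared between near-identical genes. The number of MHC members called higher was 3 without TMM factors and 9 with siCTRL#2 as the control.

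The ISRE-like pattern, GAAA repeated after any 2 bases (GAAA NN GAAA) and searched on both strands, occurs in 2.24% of the 10206 promoters, in 12 of 21 of those of the interferon-stimulated list and in 2.94% of those of the called higher genes. The ISG15 promoter (chr1:948627-948876, plus strand) carries it at 2 overlapping places, starting 113 and 107 bases before the start, in capitals.
ISG15: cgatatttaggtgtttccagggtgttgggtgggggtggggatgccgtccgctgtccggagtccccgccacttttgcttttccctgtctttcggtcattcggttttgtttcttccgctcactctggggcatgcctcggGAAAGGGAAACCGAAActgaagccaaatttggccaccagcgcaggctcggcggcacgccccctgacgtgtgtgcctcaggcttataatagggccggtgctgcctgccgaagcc

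Targets of NRF2, the transcription factor that induces antioxidant and detoxifying enzymes when its inhibitor KEAP1 is blocked, rose as a group. Of 23 members 18 were called higher and 0 lower by limma, at an unadjusted p under 0.05, by DESeq2 and by edgeR, with a median of 0.97. Besides HMOX1, both subunits of glutamate-cysteine ligase rose, GCLM at 119, 174, 183 and 168 RPM against 16.1, 17.8, 22.5, 15.5 and 17.98 RPM (3.06 ± 0.29 (SE, limma, adjusted p = 4.2e-10)) and GCLC at 257, 286, 263 and 259 RPM against 74.1, 56.1, 58.8, 71.04 and 57.99 RPM (1.98 ± 0.26 (SE, limma, adjusted p = 2.6e-07)). The ferritin heavy chain gene FTH1 was at 8844, 10379, 14660.2 and 10060.00 RPM against 2202, 2196, 2683, 2438 and 2152 RPM (2.21 ± 0.17 (SE, limma, adjusted p = 4.2e-12)). These did not overlap with the controls. The malic enzyme ME1 (2.25), the quinone reductase NQO1 (1.56) and SRXN1 (1.52) rose too, while TXNRD1 (0.32), TXN (0.24) and the cystine transporter SLC7A11 (0.07) were not called.

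Part of the autophagy and lysosomal genes rose, among them 3 of 9 autophagy receptors. Of 30 autophagy genes 12 were called higher and 0 lower by limma (background 13.2% and 14.8%), with a median of 0.31. 1 was lower at an unadjusted p under 0.05, and 0 by DESeq2 and by edgeR. SQSTM1, the receptor p62, which gathers ubiquitinated cargo and also binds KEAP1, was at 5645, 6961, 8771 and 4803 RPM in siVPS4A+B#2 replicates 1 to 4 and 550.5, 540.2, 816, 579 and 600.1 RPM in siCTRL#1 replicates 1 to 5 (3.32 ± 0.32 (SE, limma, adjusted p = 5.6e-10)). OPTN, another ubiquitin-binding receptor, was at 83.2, 85.03, 139 and 99.9 RPM against 24.1, 19.97, 22.3, 26.1 and 17.6 RPM (2.06 ± 0.20 (SE, limma, adjusted p = 7.1e-10)), and the ATG8 protein GABARAPL1 at 139.98, 132, 149 and 146 RPM against 69.4, 60.2, 54.2, 61.9 and 48.3 RPM (1.19 ± 0.19 (SE, limma, adjusted p = 3.7e-06)). For these 3 the groups did not overlap. The receptors NBR1 (0.27) and TAX1BP1 (-0.41) were not called, and the rise of ATG12 (1.72) was absent with NT (0.23) or siCTRL#2 (-0.48) as the control. Of 56 lysosomal genes 17 were called higher and 2 lower (background 13.2% and 14.8%), with a median of 0.28. NPC1, the cholesterol exporter of late endosomes, was at 126, 112, 185 and 84.8 RPM against 33.3, 45.1, 38.7, 28.7 and 42.1 RPM (1.68 ± 0.23 (SE, limma, adjusted p = 5.9e-07)), GLA, alpha-galactosidase A, at 50.6, 66.5, 55.6 and 50.8 RPM against 18.6, 20.3, 19.9, 16.5 and 19.3 RPM (1.49 ± 0.19 (SE, limma, adjusted p = 9.1e-08)), and the V-ATPase subunit ATP6V0D1 at 137, 144, 156 and 129 RPM against 52.02, 54.4, 58.8, 45.5 and 52.2 RPM (1.47 ± 0.21 (SE, limma, adjusted p = 6.6e-07)). Each was higher in all 4 libraries than in the controls. CASTOR1, an arginine sensor upstream of mTORC1, had 1.72, and the protease CTSD 1.02. Without the library labelled siVPS4A#1 replicate 2, ATP6V0D1 and CASTOR1 differed from siVPS4A#1 alone by 0.20 and 0.05, both uncalled. NPC1, GLA and CTSD differed from siVPS4A#1 alone by 1.95, 1.71 and 0.73 in that fit, all called higher. 11 of 15 V-ATPase subunits were not called, ASAH1 fell by 0.72, and FNIP2 (-1.32) was not called against NT (-0.32).

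Of the genes of cholesterol synthesis 13 of 20 rose. These genes are driven by SREBP2, which is released when sterol in the endoplasmic reticulum is low. Of 35 sterol and fatty acid genes 19 were called higher and 0 lower by limma, with a median of 0.68. 2 were lower at an unadjusted p under 0.05, by DESeq2, by edgeR and by limma without the library labelled siVPS4A#1 replicate 2. HMGCS1, an early synthase of the pathway, was at 419, 816, 832 and 687 RPM in siVPS4A+B#2 replicates 1 to 4 and 52.4, 90.7, 99.02, 48.5 and 92.4 RPM in siCTRL#1 replicates 1 to 5 (3.18 ± 0.37 (SE, limma, adjusted p = 2.5e-08)). MSMO1 was at 258, 448, 525 and 343 RPM against 57.04, 123, 89.7, 77.2 and 122 RPM (2.06 ± 0.27 (SE, limma, adjusted p = 2e-07)) and FDPS, farnesyl diphosphate synthase, at 231, 251, 273 and 219.5 RPM against 62.4, 52.9, 92.8, 69.5 and 56.01 RPM (1.81 ± 0.20 (SE, limma, adjusted p = 1.1e-08)). The 3 genes lay above the controls in every library. The isomerase IDI1 rose by 1.66 and the fatty acid synthase FASN by 1.40, while the regulators SREBF2 (-0.01), SREBF1 (0.13) and SCAP (0.24) were not called.

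Cytosolic chaperones rose and those of the endoplasmic reticulum did not rise as a group. Of 15 heat shock genes 8 were called higher and 0 lower by limma, with a median of 0.63. 1 was lower at an unadjusted p under 0.05, and 0 by DESeq2 and by edgeR. HSPA1A was at 3.24, 2.80, 2.88 and 5.10 RPM against 1.17, 0.478, 1.35, 0.287 and 1.04 RPM (1.36 ± 0.25 (SE, limma, adjusted p = 5.6e-05)) and HSPA1B at 136, 153, 192 and 212 RPM against 52.4, 102, 76.2, 51.8 and 99.5 RPM (1.33 ± 0.20 (SE, limma, adjusted p = 2.2e-06)), near-identical genes whose reads may be shared. Both were higher in every siVPS4A+B#2 library. The number called higher was 5 without TMM factors, and DNAJA1 (0.96) and HSP90AB1 (0.87) were not called with siCTRL#2 as the control (0.32 and 0.12). Of 25 genes of the unfolded protein response 2 were called higher and 5 lower (background 13.2% and 14.8%), with a median of -0.18. CRELD2, a secreted ER stress protein, was at 28.3, 28.4, 26.9 and 25.1 RPM against 76.9, 52.1, 95.5, 74.3 and 63.5 RPM (-1.40 ± 0.18 (SE, limma, adjusted p = 1.9e-07)), and the ER chaperone HSP90B1 fell by 0.67, whereas DNAJB9 rose by 0.99 and HSPA5 (-0.08) and XBP1 (-0.05) were not called. CRELD2 was below the controls in all 4 libraries.

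Fewer than 1 in 2 of the immediate-early genes were called higher, beside 13.2% over all genes. The phosphatases that shut off MAP kinases changed in opposite directions. Of 28 AP-1 and immediate-early genes 13 were called higher and 2 lower (median 0.56). In 12 the siVPS4A+B#2 libraries lay wholly above the controls and in 1 below (background 15.8% and 15.7%). ATF3, a stress-induced AP-1 factor, was at 113, 127, 219.6 and 106 RPM against 26.4, 27.5, 21.3, 31.3 and 22.7 RPM (2.27 ± 0.35 (SE, limma, adjusted p = 4.1e-06)). DUSP1 was at 122, 168, 88.2 and 144 RPM against 29.6, 30.1, 17.6, 25.8 and 32.3 RPM (2.26 ± 0.34 (SE, limma, adjusted p = 2.3e-06)) and DUSP6, the ERK phosphatase and ERK target, at 163, 108, 67.7 and 133 RPM against 531, 379.98, 255, 499 and 379 RPM (-1.72 ± 0.35 (SE, limma, adjusted p = 0.00018)). ATF3 and DUSP1 lay above the controls in every library and DUSP6 below them. JUND (1.62), KLF6 (1.82) and DUSP5 (1.93) rose as well, and JUN (0.31) and EGR1 (-0.82) were not called. Of 12 genes of the EGFR family, whose receptors are ESCRT cargo, 3 were called higher and 1 lower (background 13.2% and 14.8%). The ligand EREG was at 555, 717, 717 and 675 RPM against 251, 279.9, 232, 249 and 289 RPM (1.34 ± 0.23 (SE, limma, adjusted p = 2.1e-05)) and HBEGF at 39.9, 48.01, 50.1 and 40.6 RPM against 15.1, 21.2, 19.8, 22.1 and 19.7 RPM (1.14 ± 0.28 (SE, limma, adjusted p = 0.0012)), and EGFR had -0.41 and was not called. Both ligands were above the controls in all 4 libraries.

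Genes of mitosis and cytokinesis fell nearly throughout. Of 37 members 35 were called lower, with 35 lying below every control library (background 14.8% and 15.7%), and 0 were higher by limma, at an unadjusted p under 0.05, by DESeq2 or by edgeR. The median was -1.42. The 2 that were not called were UBE2C (-0.22) and ESPL1 (-0.34). DLGAP5, a spindle protein, was at 25.1, 25.8, 18.1 and 25.01 RPM against 86.1, 102, 109, 80.5 and 139 RPM (-2.12 ± 0.27 (SE, limma, adjusted p = 1.5e-07)). PLK1, the polo-like kinase of mitotic entry, was at 36.7, 41.8, 32.7 and 49.8 RPM against 102, 159, 176, 100.5 and 197 RPM (-1.78 ± 0.26 (SE, limma, adjusted p = 1e-06)), and CCNB1, cyclin B1, at 47.1, 37.9, 41.1 and 37.4 RPM against 68.6, 101, 106, 88.7 and 119.7 RPM (-1.23 ± 0.21 (SE, limma, adjusted p = 1.3e-05)). In these the highest siVPS4A+B#2 library was below the lowest control. Among the kinases BUB1 (-1.78), AURKA (-1.18) and CDK1 (-1.32) and among spindle proteins NUSAP1 (-1.96) and CENPA (-1.74) fell, as did TOP2A (-1.62) and the cytokinesis proteins PRC1 (-1.62), ECT2 (-1.54) and ANLN (-1.32). The CHR letters TTTGAA, on both strands, occur in 8.26% of the 10206 promoters, in 16 of 31 of those of the mitosis list and in 10.9% of those of the called lower genes. The DLGAP5 promoter (chr14:55658304-55658553, minus strand) holds them 138 and, on the other strand, 109 bases before the start, in capitals.
DLGAP5: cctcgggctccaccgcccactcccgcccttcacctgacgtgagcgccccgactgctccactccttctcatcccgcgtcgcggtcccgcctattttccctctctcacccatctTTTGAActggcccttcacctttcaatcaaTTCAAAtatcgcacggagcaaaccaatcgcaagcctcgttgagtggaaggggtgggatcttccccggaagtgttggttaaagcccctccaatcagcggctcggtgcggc

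DNA replication and repair fell less deeply. Of 49 members 37 were called lower and 1 higher, with a median of -0.87. RRM2, the regulated subunit of ribonucleotide reductase, was at 88.1, 112, 129 and 64.96 RPM against 228, 217, 309, 226 and 279 RPM (-1.45 ± 0.21 (SE, limma, adjusted p = 1.8e-06)), and the helicase subunit MCM2 at 15.2, 12.3, 7.20 and 14.4 RPM against 26.9, 27.03, 29.6, 22.96 and 25.1 RPM (-1.11 ± 0.23 (SE, limma, adjusted p = 0.0002)). RAD51AP1, a protein of homologous recombination, was at 3.24, 3.66, 3.68 and 2.55 RPM against 10.5, 13.8, 20.4, 12.9 and 14.9 RPM (-1.86 ± 0.22 (SE, limma, adjusted p = 3.1e-08)). In all 3 the groups did not overlap. The member that rose was CCNE1, cyclin E1, which opens S phase, at 31.03, 32.5, 35.2 and 35.1 RPM against 12.04, 15.7, 10.8, 8.61 and 11.01 RPM (1.53 ± 0.18 (SE, limma, adjusted p = 2.5e-08)), above the controls in every library, whereas CCNE2 fell by 1.05 and E2F1 by 0.91. Without the library labelled siVPS4A#1 replicate 2, CCNE1 and RAD51AP1 differed from siVPS4A#1 alone by 0.27 and 0.30, both uncalled. RRM2 differed by 0.92, called higher. With siCTRL#2 as the control 21 members were called lower in place of 37.

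Replication-dependent histone genes, which are transcribed in S phase, were called lower in each class. Of 40 measured genes 31 were called lower and 2 higher, with a median of -1.40. By class, 2 of 2 H1, 11 of 11 H2A, 9 of 11 H2B, 3 of 8 H3 and 6 of 8 H4 genes were called lower. H4C4 was at 77.4, 67.6, 45.5 and 83.8 RPM against 335, 244, 415, 333 and 274 RPM (-2.32 ± 0.25 (SE, limma, adjusted p = 6.3e-09)) and H2AC11 at 469, 405, 332 and 360.3 RPM against 1684, 1040.2, 1917, 1609 and 1077 RPM (-1.98 ± 0.19 (SE, limma, adjusted p = 5.5e-10)). Each lay below the controls in all 4 libraries. H4C8 (-2.19), H2AC17 (-2.01) and H4C2 (-1.86) fell as well, and H3C4 rose by 0.91. Many of these genes are near-identical, so single members are uncertain where reads may be shared. With siCTRL#2 as the control, 16 members in place of 31 were called lower. The octamer letters ATTTGCAT, on both strands, occur in 1.42% of the 10206 promoters and in 16 of 36 of those of the histone list. The H2AC11 promoter (chr6:27100572-27100821, plus strand) carries them on the minus strand, 208 bases before the start, in capitals.
H2AC11: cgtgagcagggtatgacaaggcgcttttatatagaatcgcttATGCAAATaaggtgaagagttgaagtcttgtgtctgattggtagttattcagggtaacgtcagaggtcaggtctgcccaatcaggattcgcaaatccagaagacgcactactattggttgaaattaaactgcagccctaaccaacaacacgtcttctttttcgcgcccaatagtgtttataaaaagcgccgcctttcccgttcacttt

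Of 27 targets of p53, which HCT116 carries in its wild-type form, 12 were called higher and 1 lower, with a median of 0.52. CDKN1A, the cyclin-dependent kinase inhibitor p21, was at 2295, 2443, 1709 and 2028 RPM against 632, 756, 836, 598 and 721 RPM (1.63 ± 0.18 (SE, limma, adjusted p = 7.9e-09)), above every control. PLK3 (1.14), BBC3 (1.25) and GDF15 (0.88) rose, MDM2, the ligase that degrades p53, rose by 0.73 but was not called against NT (0.53) or without TMM factors (0.58), and GADD45A (-0.23), FAS (0.52) and BAX (0.53) were not called. PLK2 (1.32) and SESN1 (1.28) were not called with siCTRL#2 as the control (0.33 and 0.48). With siVPS4A#1 alone the list median against siCTRL#1 was 0.63, and 0.78 without the library labelled siVPS4A#1 replicate 2. CDKN1A had a mean of 2790 RPM in the other 4 siVPS4A#1 libraries, from which the pair differed by -0.36, uncalled.

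Targets of ATF4, the factor of the integrated stress response that drives amino acid synthesis and uptake, and aminoacyl-tRNA synthetases were called lower more often than higher. Of 41 members 15 were called lower and 3 higher, with a median of -0.33. The 5 controls differed among themselves: the summed level of the list was 16964 and 16470.3 RPM in siCTRL#1 replicates 1 and 4 and 10373, 9024 and 9232 RPM in replicates 2, 3 and 5, beside 9945 to 12091 RPM in siVPS4A+B#2. PCK2 was at 25.1, 15.7, 11.7 and 10.3 RPM in siVPS4A+B#2 replicates 1 to 4 and 179, 82.3, 56.9, 194 and 70.2 RPM in siCTRL#1 replicates 1 to 5 (-2.90 ± 0.29 (SE, limma, adjusted p = 1.6e-09)), and PHGDH, the first enzyme of serine synthesis, at 157, 97.1, 99.1 and 71.6 RPM against 578, 356, 219, 592 and 272 RPM (-1.94 ± 0.25 (SE, limma, adjusted p = 1.2e-07)). Both were lower in all 4 libraries than in any control. ASNS, asparagine synthetase, was at 122, 88.05, 91.9 and 81.4 RPM against 366, 143, 84.1, 319 and 121 RPM (-1.07 ± 0.28 (SE, limma, adjusted p = 0.0027)), and overlapped with the controls of replicates 3 and 5. It was not called without the block (-0.89) or against NT (-0.62). TRIB3, a pseudokinase feedback inhibitor of ATF4, had -1.42 and was not called without the block (-1.21) or with siCTRL#2 (-0.94), and NUPR1 had -2.21 and was not called against NT (-0.86). CHAC1, which degrades glutathione, had -0.92 against siCTRL#1, uncalled (called without the library labelled siVPS4A#1 replicate 2, -0.90), 0.28 against NT and 1.05 against siCTRL#2. Without the block 7 members in place of 15 were called lower, with NT as the control 9, with siCTRL#2 as the control 7 and with siCTRL#1 replicates 1 to 3 as the only controls 7, when neither ASNS (-0.70) nor TRIB3 (-1.03) was called. ATF4 itself had -0.29 and DDIT3 0.05, both uncalled.

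**Figure D3:**
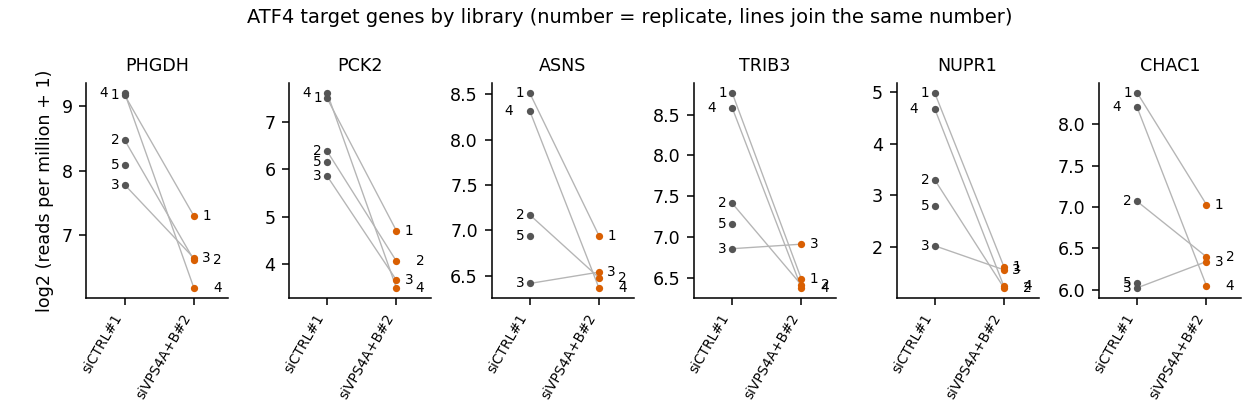
Log2 of RPM plus 1 (vertical axis) of PHGDH, PCK2, ASNS, TRIB3, NUPR1 and CHAC1 in each siCTRL#1 and siVPS4A+B#2 library, with replicate numbers at the points and lines joining libraries of the same number. siCTRL#1 replicates 1 and 4 lie above replicates 2, 3 and 5 for ASNS and CHAC1, while the siVPS4A+B#2 libraries lie close together.

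Of 14 Wnt targets 3 were called higher and 7 lower (median -0.62). AXIN2, a feedback inhibitor of the pathway, was at 4.43, 4.52, 4.96 and 4.61 RPM against 17.2, 19.97, 22.8, 19.1 and 21.3 RPM (-1.86 ± 0.14 (SE, limma, adjusted p = 4.4e-12)) and BMP4 at 143, 124, 110.1 and 159.8 RPM against 403, 606, 626, 433 and 639 RPM (-1.91 ± 0.25 (SE, limma, adjusted p = 1.5e-07)), both below the controls in all 4 libraries. NOTUM (-1.91) and RNF43 (-1.53), which act against Wnt ligands and receptors, were not called with siCTRL#2 as the control (-0.05 and -0.41), nor was DKK1 (1.82, then -0.02), and neither NOTUM (-0.65) nor DKK1 (0.06) was called against NT. With NT or siCTRL#2 as the control 3 members were called lower. Of 25 genes of glycolysis and hypoxia 2 were called higher and 3 lower (background 13.2% and 14.8%). The glucose transporter SLC2A1 was at 617, 700.3, 426 and 536 RPM against 2034, 1356, 1899.9, 1891 and 2300.1 RPM (-1.73 ± 0.25 (SE, limma, adjusted p = 1.5e-06)) and PGK1 had -1.02, while LDHA (-0.23) and VEGFA (0.17) were not called. SLC2A1 was lower in all 4 libraries than in the controls. Without the library labelled siVPS4A#1 replicate 2, SLC2A1 and PGK1 differed from siVPS4A#1 alone by -0.30 and 0.25, both uncalled. From siVPS4A+B#1 they differed by -2.19 and -1.15, both called lower.

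Most members of housekeeping groups were not called, where over all genes 13.2% were called higher and 14.8% lower. Of 26 respiratory chain genes 1 was called higher and 0 lower by limma, 4 being lower at an unadjusted p under 0.05, 1 by DESeq2, 0 by edgeR and 1 by limma without the library labelled siVPS4A#1 replicate 2. Of 37 cytosolic ribosomal protein genes 5 were called higher and 1 lower, and of 24 genes of ribosome biogenesis 5 and 1. Of the ribosomal protein genes 12 lay wholly above the controls and 1 below (background 15.8% and 15.7%). The ribosomal proteins called higher numbered 1 with NT and 3 with siCTRL#2 as the control. RRP12 rose by 1.47, and NPM1, the nucleolar protein nucleophosmin, was at 728, 775, 795 and 557 RPM against 1347, 1608, 1600.1, 1364 and 1575 RPM (-1.13 ± 0.23 (SE, limma, adjusted p = 0.00015)), below every control. Of 43 cytoskeletal and adhesion genes 9 were called higher and 3 lower, and 16 were higher with NT as the control. LAMB3, which encodes a chain of laminin-332, was at 312, 315, 246 and 277 RPM against 75.6, 51.5, 81.6, 69.5 and 65.6 RPM (2.02 ± 0.24 (SE, limma, adjusted p = 4.9e-08)). The libraries did not overlap with the controls, and LAMA3, of another chain, had -0.29 and was not called. Among the markers of other cell types, CD68, a late endosomal and lysosomal protein used to mark macrophages, was at 44.8, 51.02, 95.3 and 40.9 RPM against 7.53, 5.26, 9.46, 8.90 and 10.3 RPM (2.55 ± 0.50 (SE, limma, adjusted p = 0.0001)) and COL1A1, a collagen chain of fibroblasts, at 53.4, 61.4, 51.4 and 86.1 RPM against 23.6, 31.2, 28.4, 15.5 and 30.4 RPM (1.38 ± 0.25 (SE, limma, adjusted p = 3.2e-05)). Both rose in every library, the lysozyme gene LYZ (0.05) and the endothelial PECAM1 (-0.04) were not called, and the defining leukocyte marker PTPRC was not among the listed genes. The part of other cells in the results was not tested.

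The same duplexes given singly show how much of the pair's difference either duplex gave alone. Against siVPS4B#2 alone, siVPS4A+B#2 had 1502 genes higher (11.9%) and 1601 lower (12.7%, together 24.6%), and against siVPS4A#1 alone 851 higher (6.74%) and 635 lower (5.03%, together 11.8%). Without the library labelled siVPS4A#1 replicate 2, the comparison with siVPS4A#1 called 1079 higher and 1128 lower (17.5%), and 1191 genes were called both ways. That library had 304 RPM of CXCL8, 274 RPM of BIRC3 and 102 RPM of MAN2B2. Its HMGA2 (317 RPM) lay within the siVPS4A+B#1 values printed below and its MAN2B2 just above them. In the other siVPS4A#1 libraries the means were 1679 RPM for HMGA2 and 14.5 RPM for MAN2B2. Whether the label of that library is wrong was not tested. The interaction term, the effect of the pair less the effects of both single duplexes, all against siCTRL#1, was called for 733 genes above and 492 below 0 (9.7%), and without that library for 1217 and 1090 (18.3%), 1167 genes being called both ways. Without siVPS4B#2 replicate 3 the interaction was called for 892 genes, and with siCTRL#1 replicates 1 to 3 as the only controls for 646.

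The highest interaction terms were those of HMOX1, BIRC3, TNFRSF9, ASNS, CHAC1 and CXCL8. HMOX1 was at 139 ± 110.5 RPM (SD, n = 5) with siVPS4A#1, 74.1 ± 12.2 RPM (SD, n = 4) with siVPS4B#2 and 3912 ± 1245 RPM (SD, n = 4) with both, an interaction of 4.33 ± 0.36 (SE, limma, adjusted p = 8.1e-10), and 4.75 without the library labelled siVPS4A#1 replicate 2. BIRC3 was at 60.8 ± 119 RPM (SD, n = 5) with siVPS4A#1, 9.28 ± 0.932 RPM (SD, n = 4) with siVPS4B#2 and 265 ± 39.97 RPM (SD, n = 4) with both, an interaction of 3.90 ± 0.73 (SE, limma, adjusted p = 0.00073), and 4.90 without that library. CXCL8 was at 63.2 ± 135 RPM (SD, n = 5) with siVPS4A#1, 3.51 ± 0.971 RPM (SD, n = 4) with siVPS4B#2 and 89.2 ± 21.6 RPM (SD, n = 4) with both, an interaction of 3.21 ± 0.93 (SE, limma, adjusted p = 0.023), and 4.50 without it. The wide spread of siVPS4A#1 for BIRC3 and CXCL8 came with that 1 library, the mean of the other 4 being 7.65 and 2.94 RPM. The call of CXCL8 was lost by DESeq2 (1.41, adjusted p = 0.46), and by limma without siCTRL#1 replicate 5 (2.83), without siVPS4A#1 replicates 1, 4 or 5 (2.77, 2.77 and 2.83) or without siVPS4B#2 replicate 1 (3.07), and with siCTRL#1 replicates 1 to 3 as the only controls (2.78). TNFRSF9 had an interaction of 3.70 by limma, 4.79 without that library, and 2.87 by DESeq2, uncalled there (adjusted p = 0.11). ASNS was at 24.4 ± 12.5 RPM (SD, n = 5) with siVPS4A#1, 82.6 ± 61.2 RPM (SD, n = 4) with siVPS4B#2 and 95.8 ± 17.9 RPM (SD, n = 4) with both, an interaction of 3.43 ± 0.39 (SE, limma, adjusted p = 1.3e-06), and CHAC1 at 23.6 ± 18.03 RPM (SD, n = 5) with siVPS4A#1, 112 ± 145 RPM (SD, n = 4) with siVPS4B#2 and 89.5 ± 27.8 RPM (SD, n = 4) with both, 3.27 ± 0.54 (SE, limma, adjusted p = 0.00023). Without that library the terms were 3.63 and 3.56. Both were called higher in the pair than with siVPS4A#1 alone, by 1.88 and 1.94, and by 2.10 and 2.26 without it.

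By list, 28 of 41 ATF4 targets and synthetases had an interaction called above 0 (median 1.30, background 5.81% above), with medians against siCTRL#1 of -0.96 for siVPS4A#1 alone, -0.53 for siVPS4B#2 alone and -0.33 for the pair. The interaction was called above 0 for 18 of 44 NF-kB genes (median 0.75) and 17 of 35 sterol genes (median 0.72). Genes of division were already low with siVPS4A#1 alone: the median against siCTRL#1 was -1.79 for mitosis and -1.73 for histones, beside -1.42 and -1.40 with the pair, and 10 of 37 mitosis genes were called higher in the pair than with siVPS4A#1 alone (background 6.74%). With siVPS4B#2 alone those medians were -0.44 and -0.41. The other VPS4A duplex, siVPS4A#2, given alone differed far less from siCTRL#1. By limma 9 genes had an adjusted p under 0.05 at any fold with siVPS4A#2, beside 3989 with siVPS4A#1. Why these duplexes differed was not tested. Without the library labelled siVPS4A#1 replicate 2 the interaction was called above 0 for 31 of the ATF4 targets and synthetases (median 1.44, background 9.64%), 29 of the NF-kB genes (median 0.94) and 26 of the sterol genes (median 0.89). The medians with siVPS4A#1 alone were then -1.15 for the ATF4 list, -1.95 for mitosis and -1.59 for histones, and 17 mitosis genes were called higher in the pair than with siVPS4A#1 alone (background 8.55%). With all libraries the interaction of p53 targets was called below 0 for 7 of 27 and above 0 for 1 (background 3.9% and 5.81%). Without the library labelled siVPS4A#1 replicate 2 these counts were 12 and 2 (background 8.63% and 9.64%). These comparisons share their siCTRL#1 libraries. The interaction term adds the siCTRL#1 level, which for the ATF4 list was higher in replicates 1 and 4 than in the others. The list counts of the interaction with fewer controls are not given here.

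The lowest interaction terms were those of MYBPH (-3.73), TMT1A (-3.14), PRR15L (-2.66), SPARC (-2.63), ABCA12 (-2.27) and INPP5D (-2.20), genes that were higher in at least 1 single silencing than in the pair. TMT1A was at 7.15 ± 3.20 RPM (SD, n = 5) with siVPS4A#1, 11.1 ± 2.38 RPM (SD, n = 4) with siVPS4B#2 and 0.855 ± 0.384 RPM (SD, n = 4) with both, an interaction of -3.14 ± 0.42 (SE, limma, adjusted p = 1.5e-05), and -3.57 without the library labelled siVPS4A#1 replicate 2. INPP5D, the inositol phosphatase SHIP1, was at 9.66 ± 4.34 RPM (SD, n = 5) with siVPS4A#1, 3.24 ± 0.657 RPM (SD, n = 4) with siVPS4B#2 and 0.882 ± 0.35 RPM (SD, n = 4) with both, an interaction of -2.20 ± 0.34 (SE, limma, adjusted p = 0.00011), and -2.48 without that library. The levels of the pair rested on 22 and 23 reads over 4 libraries. The interaction of SPARC was not called without siVPS4AB#2 replicate 3 (-2.12), siCTRL#1 replicate 5 (-2.34), siVPS4A#1 replicates 1, 3 or 5 (-2.33, -2.22 and -2.34) or siVPS4B#2 replicate 3 (-2.42), or with siCTRL#1 replicates 1 to 3 as the only controls (-2.34), and that of ABCA12 not with a pseudocount of 0.1 (-2.98). Without the library labelled siVPS4A#1 replicate 2 the terms were -3.57 for SPARC, -4.32 for MYBPH, -2.93 for PRR15L and -2.88 for ABCA12, all called.

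**Figure D4:**
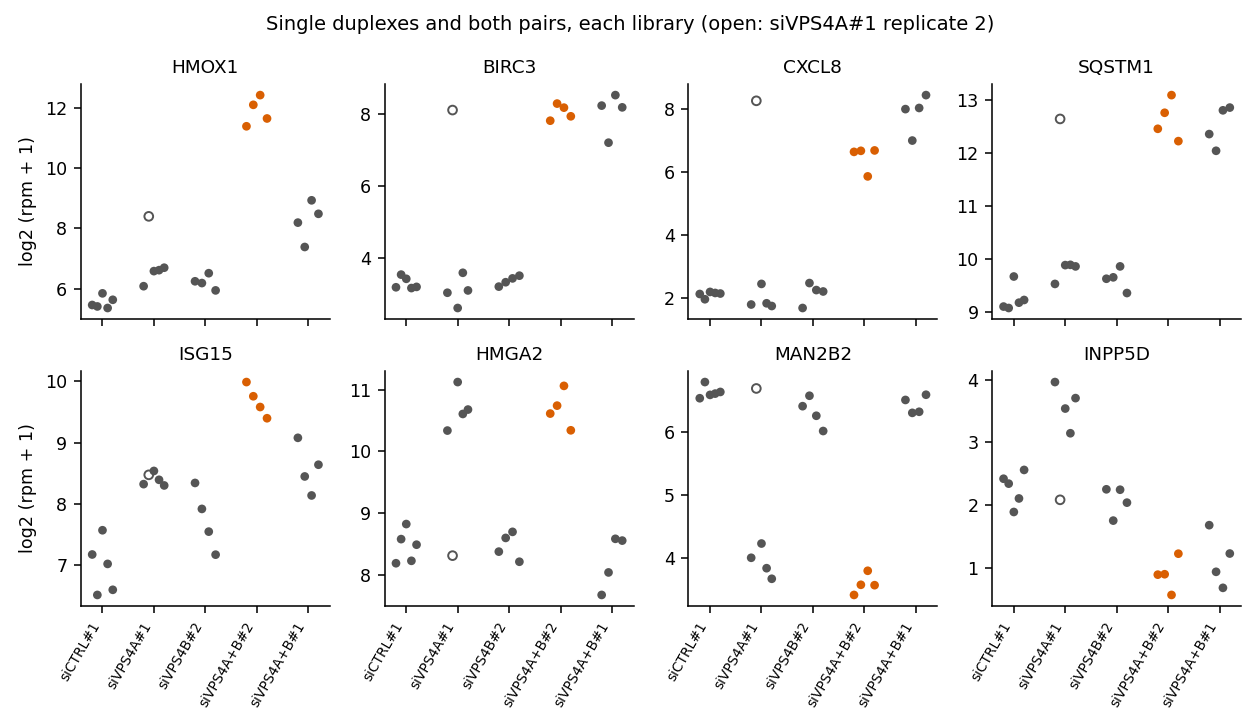
Log2 of RPM plus 1 (vertical axis) of 8 genes in each library of siCTRL#1, siVPS4A#1, siVPS4B#2, siVPS4A+B#2 and siVPS4A+B#1, with the library labelled siVPS4A#1 replicate 2 as an open point. MAN2B2 is low and HMGA2 high where siVPS4A#1 was given, except in the open point, and CXCL8 and BIRC3 are high in both pairs and in the open point.

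Both pairs target the same 2 genes with different duplexes, and their difference was called for 1997 genes, 832 higher in siVPS4A+B#2 (6.59%) and 1165 lower (9.23%). The pairs did not leave the same target levels. VPS4A was at 2.68% of the siCTRL#1 mean in siVPS4A+B#2 and 10.6% in siVPS4A+B#1, and VPS4B at 6.29% and 2.64%. The part of this in the called genes was not tested. HMOX1 was at 2660.2, 4357, 5447 and 3183 RPM in siVPS4A+B#2 against 289.9, 165, 485 and 355 RPM in siVPS4A+B#1, a difference of 3.64 ± 0.27 (SE, limma, adjusted p = 2.6e-11), and KRTAP3-1 at 65.98, 31.6, 20.8 and 49.8 RPM in siVPS4A+B#2 against 8.49, 2.13, 2.28 and 4.02 RPM in siVPS4A+B#1, 3.07 ± 0.34 (SE, limma, adjusted p = 4.6e-08). HMGA2, a chromatin protein gene, was at 1565, 1711, 2135 and 1297 RPM in siVPS4A+B#2 against 204, 263, 383 and 376 RPM in siVPS4A+B#1, 2.47 ± 0.29 (SE, limma, adjusted p = 1.4e-07), and MAN2B2 at 9.72, 10.98, 12.97 and 10.9 RPM in siVPS4A+B#2 against 89.8, 77.8, 78.8 and 95.1 RPM in siVPS4A+B#1, -2.83 ± 0.29 (SE, limma, adjusted p = 1.2e-08). None of these 4 genes overlapped between the pairs. HMGA2 had a mean of 1679 RPM and MAN2B2 of 14.5 RPM in the 4 other libraries of siVPS4A#1 alone, differences of the pair from siVPS4A#1 of -0.01 and -0.42, neither called, whereas MAN2B2 was called lower than with siVPS4A#1 when all 5 libraries were used. KLC2 (2.12), WSB1 (2.06) and DACT1 (2.04) were the other highest. KLC2, a kinesin light chain, was at 112, 144, 112 and 162 RPM in siVPS4A+B#2 against 24.8, 41.5, 21.04 and 33.9 RPM in siVPS4A+B#1, and fell in siVPS4A+B#1 against siCTRL#1 (-1.62 ± 0.29 (SE, limma, adjusted p = 7.3e-05)), where it was 103 ± 15.9 RPM (SD, n = 5). SHTN1 (-2.56), CYSTM1 (-2.40), SPOPL (-2.39), TXNRD2 (-2.36) and ZCCHC24 (-2.30) were the other lowest.

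By list, 16 of 27 interferon-stimulated genes were called higher in siVPS4A+B#2 than in siVPS4A+B#1 (median 0.68, against a median over siCTRL#1 of 0.14 in siVPS4A+B#1 and 1.00 in siVPS4A+B#2). CXCL8, BIRC3, TNFRSF9 and SQSTM1 were not called between the pairs, with differences of -1.40, 0.02, -0.01 and 0.12, but CXCL8 was called lower in siVPS4A+B#2 when the library labelled siVPS4A#1 replicate 2 was left out of the model (-1.40, limma, adjusted p = 1.9e-05). Of 44 NF-kB genes 4 were higher and 5 lower (median -0.11), of 37 mitosis genes 12 were lower (median -0.44), and the sterol list had a median difference of 0.12. Over all genes 6.59% were called higher and 9.23% lower between the pairs. Without the library labelled siVPS4A#1 replicate 2 in the model the NF-kB list had 4 higher and 8 lower and the mitosis list 16 lower (background 7.53% higher and 9.92% lower). Dose and time were the same in both pairs, and the medians over siCTRL#1 share their control libraries.

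The calls also depended on the control used. With NT in place of siCTRL#1, 3509 genes were called, 2313 of them also called against siCTRL#1 in the same direction and 2 in the opposite one. With siCTRL#2 3980 genes were called, 2250 in the same direction and 20 in the opposite one. The controls also differed among themselves. Against siCTRL#1, 2804 genes had a limma adjusted p under 0.05 at any fold in siCTRL#2 and 1386 in NT, beside 4978 in siVPS4A+B#2. HMOX1 had 6.84 against NT and 5.95 against siCTRL#2, CXCL8 4.93 and 4.69, SQSTM1 3.39 and 3.14, and DLGAP5 -1.87 and -2.01, all called with either control. PLAU, the urokinase gene among the NF-kB targets, rose by 1.36 over siCTRL#1 and had -0.50 against siCTRL#2.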

How the data were processed

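RNA of HCT116 cells was amplified by the authors with an Ion AmpliSeq transcriptome panel and sequenced on an Ion Proton instrument. Reads went through the Torrent Mapping Alignment Program, and HTSeq counted them per gene (version 0.6.0 in the submitters' processing notes, which also name hg19 and DESeq2 1.18.1). What the authors deposited is a signal that sums to 1 in each library: the fraction of its reads assigned to each gene. How counts became shares and how the 12627 genes were kept is not given in the sources used here.

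Low values stepped by the worth of 1 read (within 0.1 read), so division gave back the reads, 669257 to 11035293 per library. 50.4% of the values are printed finely enough to tell single reads apart, and 100% of these were whole. Amplified reads share template molecules, so intervals and floors allow for counting error alone. The files were shares and not counts, so limma (3.58.1, R 4.3.3) was used on log2(RPM + 1) with edgeR's (4.0.16) TMM factors, an intensity trend, terms for 9 conditions and, as a block, the replicate number. DESeq2 (1.42.0) and edgeR on recovered reads were alternatives, with other controls, scalings, pseudocounts and thresholds. The libraries are biological replicates in the study's words. The p-values measure the spread between libraries of 1 condition, estimated over all 38 libraries and not the 9 compared alone. They therefore also rest on the library labelled siVPS4A#1 replicate 2. Without it the SE against siCTRL#1 was 0.24 for CXCL8, 0.20 for BIRC3, 0.23 for TNFRSF9 and 0.13 for MAN2B2. Each is below the SE printed above for that gene. The recovered reads of replicates differed by more than sampling noise, least between siCTRL#1 replicates 1 and 4, and fits with 3 of the 5 siCTRL#1 libraries were added after the data were seen. The procedure was tested on simulated data.

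Genes were named by a rule: the targets, the 15 highest and 15 lowest called genes with at least 5 RPM in the higher group, up to 5 called members of each list in each direction with any member needed for a role, and the 6 highest and 6 lowest differences from siVPS4A+B#1 and interaction terms. Other members named for their role were chosen after their values were seen. Some genes that the rule names are not reported here. The comparison and the 27 lists were chosen with earlier results of these data known. Promoters came from RefSeq (GRCh38.p14) and were placed in GRCh37 by exact match, with 10206 of the genes matched by symbol.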

Additional observations from a re-analysis of the deposited data

Results flagged for a closer look

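In 404 groups of 4 or 5 libraries (202 genes, siVPS4A+B#2 and siCTRL#1), the highest or lowest library stood apart by Dixon's test in 22, where chance flags about 1 in 20 groups. 8 of these were in siCTRL#1 replicate 3, in RPM KRTAP3-1 (0.845), CPA4 (15.7), SQSTM1 (816), SESN1 (15.2), DNAJA1 (328), CYSTM1 (51), BIRC5 (261) and AURKA (14.9), and 7 in siVPS4A+B#2 replicate 3, in RPM CXCL8 (56.8), DNAJB9 (50.9), FNIP2 (10.4), TRIB3 (119), DLGAP5 (18.1), TSPAN7 (0.64) and CDK1 (32.8). The others were BBC3 (30.1), PECAM1 (0.607) and VEGFA (59.7) RPM in siVPS4A+B#2 replicate 4, ABAT (6.89) and BAX (117) RPM in siVPS4A+B#2 replicate 2, JUN (0.836) RPM in siCTRL#1 replicate 1 and DDIT3 (0.431) RPM in siCTRL#1 replicate 4.

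The effect of the second pair differed from that of the first pair for 1997 genes by limma, and its log2 differences were greatest for HMOX1 (3.64), KRTAP3-1 (3.07), HMGA2 (2.47), DACT1 (2.04), WSB1 (2.06), KLC2 (2.12), CYSTM1 (-2.40), SHTN1 (-2.56), ZCCHC24 (-2.30), SPOPL (-2.39), TXNRD2 (-2.36) and MAN2B2 (-2.83). The effect of either duplex differed with and without the other, as the interaction term, for 1225 genes, those furthest from 0 being HMOX1 (4.33), BIRC3 (3.90), TNFRSF9 (3.70), CXCL8 (3.21), ABCA12 (-2.27), PRR15L (-2.66), CHAC1 (3.27), ASNS (3.43), INPP5D (-2.20), MYBPH (-3.73), TMT1A (-3.14) and SPARC (-2.63).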

How the results depend on the processing

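With limma's treat test against a fold change of 1.5, 871 genes were called against siCTRL#1 (383 higher, 488 lower), 175 against siVPS4A+B#1, 78 against siVPS4A#1, 559 against siVPS4B#2 and 25 in the interaction. At a fold change of at least 2 the numbers were 1288 (556 higher, 732 lower), 548, 334, 1019 and 530. Without the library labelled siVPS4A#1 replicate 2 the interaction was called for 2307 genes. That fit called 3630 genes against siCTRL#1 (1618 higher, 2012 lower), 2203 against siVPS4A+B#1 and 3246 against siVPS4B#2. With 3 of the 5 controls, an alternative chosen after seeing the data, replicates 1 to 3 gave 3358 genes against siCTRL#1 and 646 in the interaction, and replicates 3 to 5 gave 3335 and 949. Leaving out in turn each library of the conditions compared gave 3330 to 3556 genes against siCTRL#1 (1447 to 1694 higher and 1800 to 1892 lower). It gave 1748 to 1965 against siVPS4A+B#1, 1229 to 2207 against siVPS4A#1, 2826 to 3102 against siVPS4B#2 and 892 to 2307 in the interaction. DESeq2 called 3894 genes and edgeR 3900, each sharing 3497 with limma in the same direction. The replicate number was used as a block because the labels call it a batch, although libraries of the same number did not deviate together in each pair (correlation of deviations over 8321 genes 0.39, -0.0022, 0.091 and -0.22 for numbers 1 to 4). Without the block 3449 genes were called (1630 higher, 1819 lower), 3309 of them shared.

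Signs that changed were mostly those of genes that were not called. They changed with NT as the control for CHAC1 (0.28), MYBPH (0.44), ATF4 (0.15), LDHA (0.11), LYZ (-0.077), SCAP (-0.025) and SREBF2 (0.28), with siCTRL#2 as the control for DKK1 (-0.022), ATG12 (-0.48), CHAC1 (1.05), ATF4 (0.16), DDIT3 (-0.27), ESPL1 (0.53), LDHA (0.89), NBR1 (-0.028), PLAU (-0.50), SREBF2 (0.43), STAT2 (2.54), TAX1BP1 (0.044) and XBP1 (0.26), without TMM factors for HLA-C (-0.053), SLC7A11 (-0.076) and SREBF1 (-0.015), without the block for LYZ (-0.013) and SREBF2 (0.027), by DESeq2 for LYZ (-0.12) and SREBF2 (0.0095), by edgeR for LYZ (-0.079) and SREBF2 (0.018), with a pseudocount of 0.1 for ABCA12 (0.10), with siCTRL#1 replicates 1 to 3 as the only controls for ABCA12 (0.17), LYZ (-0.14), PECAM1 (0.078), SREBF2 (0.0302) and XBP1 (0.042) and with replicates 3 to 5 for ABCA12 (0.037), DDIT3 (-0.037), HLA-C (-0.087) and SLC7A11 (-0.089). With 1 library left out the sign changed for some genes near 0, whose log2 fold changes ran from -0.30 to 0.17 for ABCA12, -0.049 to 0.17 for DDIT3, -0.054 to 0.18 for HLA-C, -0.36 to 0.0698 for HSPA5, -0.085 to 0.27 for LYZ, -0.20 to 0.049 for PECAM1, -0.17 to 0.34 for SLC7A11, -0.13 to 0.015 for SOD2, -0.00023 to 0.21 for SREBF1, -0.24 to 0.10 for SREBF2 and -0.16 to 0.069 for XBP1. The cause of these changes was not tested. Levels under 1 RPM, where 10.1% of 1363 genes were called, are limited by depth.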

Other observations

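Further lists also differed between the 2 combined pairs. Of 14 Wnt targets 5 were called lower in siVPS4A+B#2 than in siVPS4A+B#1 and 0 higher (background 9.23% and 6.59%). Of 25 glycolysis and hypoxia genes 6 were called lower and 0 higher, and of 23 NRF2 targets 1 and 6. Of 27 p53 targets, 10 were called higher in siVPS4A+B#2 than in siVPS4A+B#1 by limma (background 6.59%), with medians against siCTRL#1 of 0.52 and -0.09. With siVPS4A#1 alone the median was 0.63, and 0.78 without the library labelled siVPS4A#1 replicate 2. BBC3, which encodes the BH3-only protein PUMA, had a difference of 0.99 and BAX, a pore-forming BCL2 protein, one of 0.67, while CDKN1A had 0.20 and was not called. Of 15 cytosolic heat shock genes 7 were called higher, with medians against siCTRL#1 of 0.63 and 0.15. HSPA1B had a difference of 1.41. Of 43 cytoskeletal and adhesion genes 12 were called lower (background 9.23%) and 4 higher, among them KRT23 (-2.24) and LAMA3 (-0.75), both lower.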
